A study of Mus musculus with 8 samples.

Results

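The genes described here are those of the Wnt signalling machinery: the secreted Wnt ligands, the Frizzled receptors and Lrp co-receptors that bind them, the secreted inhibitors of the Sfrp, Dkk and Wif families, the R-spondin receptors and their partner ligases, and the β-catenin, Axin and Tcf/Lef genes inside the cell. They were chosen by gene symbol, and 47 of the 23597 genes in the expression table matched: 15 ligands, 10 Frizzled receptors, 2 co-receptors, 8 secreted inhibitors, 5 genes of the R-spondin arm and 7 intracellular or nuclear genes. RNA was sequenced from corneas of mice made dry-eyed by injections of scopolamine, an antagonist of muscarinic acetylcholine receptors, and taken on day 14. Scopolamine was common to all animals. The ICI group was in addition given ICI 118551, which blocks the β2-adrenergic receptor, and the Scop group was not. Each group had 4 samples of 4 pooled corneas. Strain, age, dose and genotype were not stated in the labels, nor was it stated whether pools came from separate animals. The p-values therefore reflect the spread among 8 pools, which may be technical. No cornea without dry eye was analysed here.

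In canonical Wnt signalling a ligand joins a Frizzled receptor to Lrp5 or Lrp6, the destruction complex built on Axin is halted, and β-catenin accumulates and works with Tcf/Lef factors on target genes. Sfrp proteins and Wif1 bind the ligands themselves, Dkk1 and Dkk2 block the co-receptors, and R-spondins acting through Lgr receptors keep the ligases Rnf43 and Znrf3 from removing Frizzled from the membrane. In the eye the pathway is known for its part in the limbal stem cell niche and in keeping the corneal epithelium from turning into skin-like epithelium.

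The promoters of 5 members are shown because the results below turn on these genes. Wnt4 and Wnt6 are among the ligands with lower means in ICI. Wif1 is the only tested inhibitor with an unadjusted p under 0.05, and its mean was higher in ICI. Among the other tested inhibitors the log2 differences of Dkk1, Dkk2 and Dkk3 were positive and those of Sfrp1 and Sfrp2 negative. Those of Dkk1 and Dkk2 changed sign when 1 library was left out. Dkk1 and Wnt11 each have 1 library far from the others. Each sequence is the 250 bases before a listed transcription start, from RefSeq on build GRCm38.p6 (mm10), 5′ to 3′ on the gene's strand. The Wnt6 window lies inside the span of its gene (74754342 to 74785322), so it precedes an internal start. The Wnt11 window shown runs past the first base of its gene span (98835084), so it too precedes a start inside that span. Capitals mark the letters bound by Tcf/Lef factors in their usual form, searched on both strands as CTTTG followed by AA, AT, TA or TT. These 5 were picked after the values and the matches had been seen, and Wnt10a, Wnt7b and Axin1 are named only.
Wnt4, chr4:137277385-137277634, plus strand: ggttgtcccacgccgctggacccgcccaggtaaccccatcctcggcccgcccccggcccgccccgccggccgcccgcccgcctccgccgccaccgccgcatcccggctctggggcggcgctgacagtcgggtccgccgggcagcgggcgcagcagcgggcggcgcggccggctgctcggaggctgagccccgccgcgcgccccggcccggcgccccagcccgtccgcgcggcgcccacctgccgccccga
Wnt6, chr1:74771642-74771891, plus strand: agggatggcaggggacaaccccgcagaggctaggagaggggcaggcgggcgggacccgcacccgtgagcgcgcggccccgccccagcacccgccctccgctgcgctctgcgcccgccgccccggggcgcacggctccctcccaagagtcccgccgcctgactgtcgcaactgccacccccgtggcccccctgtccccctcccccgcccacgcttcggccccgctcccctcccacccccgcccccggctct
Wif1, chr10:121033754-121034003, plus strand: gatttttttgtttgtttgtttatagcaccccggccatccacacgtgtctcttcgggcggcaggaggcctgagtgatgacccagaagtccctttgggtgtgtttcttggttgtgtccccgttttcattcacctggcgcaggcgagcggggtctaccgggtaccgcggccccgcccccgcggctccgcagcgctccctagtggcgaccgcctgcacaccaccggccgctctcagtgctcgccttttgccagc
Dkk1, chr19:30549497-30549746, minus strand: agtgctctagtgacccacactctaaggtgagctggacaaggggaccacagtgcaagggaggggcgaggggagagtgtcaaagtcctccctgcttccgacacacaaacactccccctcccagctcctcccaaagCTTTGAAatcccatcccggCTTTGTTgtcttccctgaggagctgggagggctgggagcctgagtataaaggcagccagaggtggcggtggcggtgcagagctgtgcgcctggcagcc
Wnt11, chr7:98834862-98835111, plus strand: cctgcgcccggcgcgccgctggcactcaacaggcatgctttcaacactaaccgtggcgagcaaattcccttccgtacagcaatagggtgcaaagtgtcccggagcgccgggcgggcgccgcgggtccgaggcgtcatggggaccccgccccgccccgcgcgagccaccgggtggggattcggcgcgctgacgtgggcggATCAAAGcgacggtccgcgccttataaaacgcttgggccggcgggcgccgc
Dkk1 held 2 matches, 117 and 98 bases before the start, and the Wnt11 window shown held 1, on the opposite strand, 51 bases before it. A further Wnt11 window, chr7:98838595-98838844, held 0 matches and is not shown. No match lay in the windows of Wnt4, Wnt6 or Wif1, which says only that these letters are not in these 250 bases. Of 31 members with a promoter in the RefSeq table, 6 held the motif in at least 1 window (19.4%), beside 16.8% of all 27025 genes with one. The windows of Wnt4 and Wnt6 consisted of G and C to 85.2% and 79.6%, and that of Dkk1 to 60.8%.

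Values are FPKM, which adjust fragment numbers for the length of a gene and the depth of its library, so levels can be compared between genes. Libraries held 34354346 to 39885822 fragments. Krt12, the keratin of differentiated corneal epithelium, lay between 15153 and 18414 FPKM, so the defining marker of the labelled tissue was present in every library. Scop replicate 3 stood apart: all 15 keratocyte and stromal markers were lowest there, with a summed level of 749 FPKM against 1866 to 2220 in the other Scop libraries and 1884 to 2508 in ICI. The summed epithelial markers were highest there (39563 FPKM, against 34703 to 36936 in the other libraries), as were limbal markers (2574 against 1754 to 2071) and conjunctival markers (1934 against 1174 to 1335). The largest terms of these sums were Krt12, Krt15 and Krt13 (18414, 2426 and 1468 FPKM). Not every listed gene was highest there. Abcg2 of the limbal list was lowest (5.16 FPKM), and Aldh3a1 and Krt8 lay within the range of the other libraries (10434 and 5.31 FPKM). ICI replicate 1 had the highest summed level of corneal endothelial markers, 607 FPKM against 245 to 417 in the other libraries, with 4 of 6 of them highest there. Gm26917, a transcript known to collect ribosomal RNA reads, separated the groups apart from Scop replicate 4, with 3680, 3718, 3836 and 3666 FPKM in ICI and 689, 912, 1120 and 4936 in Scop. AY036118 (22.1 to 44.2 FPKM in ICI, 3.45, 6.16, 6.23 and 34.3 in Scop) and Lars2 (109.6 to 143.7 in ICI, 24.8, 36.1, 51.3 and 142.4 in Scop) showed the same pattern. This sign of library composition moves with the contrast of ICI and Scop, and its part in the differences below was not tested. Markers of lens and skeletal muscle summed to at most 2.93 and 0.0784 FPKM. In such bulk samples, fewer cells of a type and less RNA per cell cannot be told apart.

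Wnt genes of the dry eye cornea spanned a wide range of levels, and each role was led by 1 gene. Among the ligands Wnt4 was the most abundant at 103 FPKM over all 8 libraries, and its lowest library (86.2) lay above the highest of Wnt7b (33.7), the next in order. Wnt7b, Wnt10a, Wnt5a, Wnt9a, Wnt11, Wnt2, Wnt3a and Wnt6 followed with means from 30.2 down to 6.11 FPKM, and the ranges of neighbours in this order overlapped except between Wnt3a (at least 7.95) and Wnt6 (at most 7.24). Fzd6 led the receptors (53.4 FPKM) and Dkk3 the secreted inhibitors (95.5), followed by Sfrp1 (45.4) and Dkk2 (16.6). Ctnnb1, the gene of β-catenin, was the most abundant member of all at 192 FPKM.

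**Figure D1:**
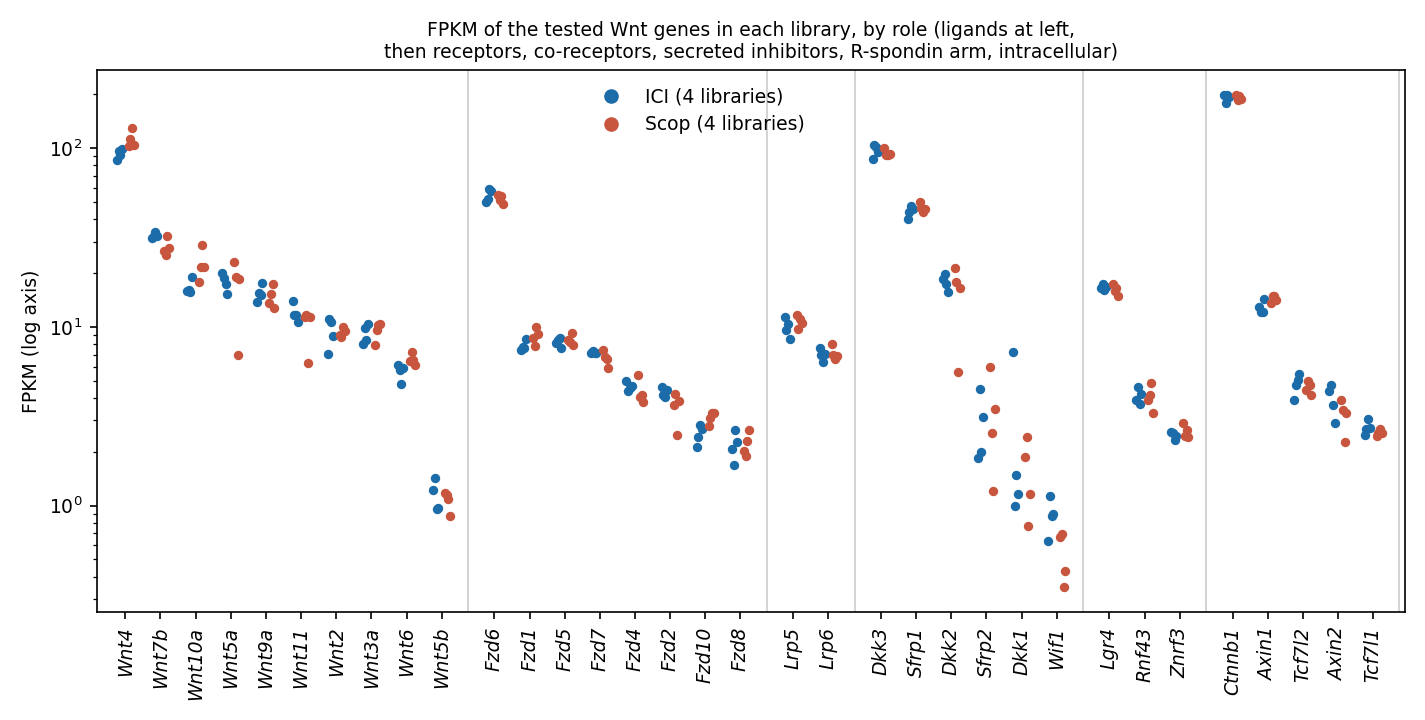
FPKM (log axis) of the 34 tested members in each of the 8 libraries, grouped by role, with ICI libraries in blue and Scop libraries in red. Wnt4, Fzd6, Dkk3, Lgr4 and Ctnnb1 lead their roles, and Wnt5a, Wnt11 and Dkk2 each have 1 Scop library far below the others.

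Setting ICI against Scop addresses how Wnt transcripts of the scopolamine-treated cornea differ under β2-adrenergic blockade. A member was tested if its mean reached 0.5 FPKM, which 34 of 47 did. Tests were made with limma on log2(FPKM + 1) over all 12100 genes that passed this filter, with Benjamini-Hochberg adjustment, and all fold changes below are on that scale, which understates those of low genes. No member passed at an adjusted p under 0.05 (smallest 0.267), and neither did any gene of the table (0%). At an unadjusted p under 0.05, 2 of the 34 members had higher values in ICI, beside 4.56% of all genes tested, and 5 had lower values, beside 7.46%. Limma-voom on recovered fragments gave 0 adjusted calls among members, and 2 higher and 4 lower without adjustment. The groups did not overlap for 1 tested member on the lower side, beside 4.36% of all genes, and for 0 on the higher side, beside 2.63%. The median log2 fold change over the 34 was 0.03, against -0.02 over all genes tested. Over the table the split of unadjusted calls moved with scaling, from 552 higher and 903 lower as deposited to 734 and 676 after median-ratio scaling and 728 and 717 after quantile normalisation. For the members these scalings gave 3 higher and 4 lower, and 3 and 2. The 2 higher members were Wnt7b and Wif1; leaving out ICI replicate 2, Scop replicate 3 or Scop replicate 4 gave 1. The 5 lower members were Wnt4, Wnt10a, Wnt6, Fzd10 and Axin1; leaving out ICI replicate 1, 2 or 3, or Scop replicate 3 or 4, gave 3.

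**Figure D2:**
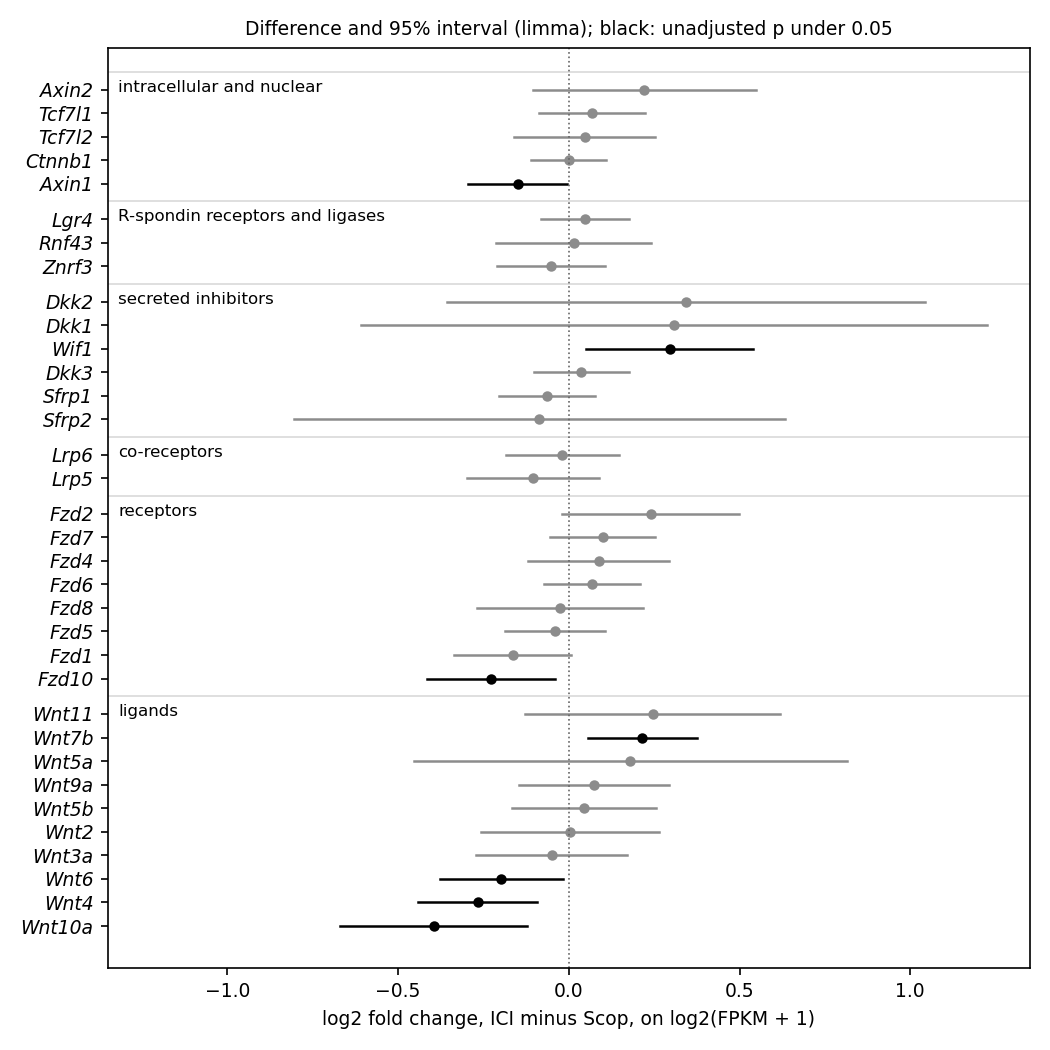
Log2 fold change (ICI minus Scop) of the 34 tested members with limma's 95% interval, by role, with members at an unadjusted p under 0.05 in black. The intervals of Wnt4, Wnt10a, Wnt6, Fzd10 and Axin1 lie below 0 and those of Wnt7b and Wif1 above it, without adjustment for the number of genes.

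Of the 10 tested ligands, 3 had lower and 1 had higher values at the unadjusted threshold, beside 7.46% and 4.56% of all genes tested. None passed adjustment, and the ligands were not tested as a set. Wnt4, a ligand that acts through β-catenin in many epithelia (chromosome 4, 137277635 to 137299501 of mm10), was at 86.2, 95.9, 91.4 and 99.2 FPKM in ICI replicates 1 to 4 and at 103, 113, 130.4 and 104 in the Scop replicates. Each ICI library lay below each Scop library, and the mean was 93.2 ± 5.68 against 113 ± 12.6 (SD, n = 4; later ± values are of the same kind), a difference of -17.3%. The log2 fold change was -0.27 (SE 0.08), with an unadjusted p = 0.00635 and an adjusted p = 0.267 by limma. This member was well measured, with 12966 to 17203 fragments per library.

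Wnt10a, a ligand known from hair, tooth and skin, was at 15.8, 16.2, 15.6 and 19.0 FPKM in ICI and at 17.9, 21.5, 28.8 and 21.6 in Scop. Only the highest ICI library reached above the lowest Scop library (16.6 ± 1.602 against 22.5 ± 4.55 FPKM). The log2 fold change of -0.40 (SE 0.12) was the most negative among the tested members and had an adjusted p = 0.286 by limma. Wnt6, its neighbour on chromosome 1 (74754342 to 74785322, with 6696 bases between it and Wnt10a at 74792019 to 74804176), was at 6.16, 5.72, 4.77 and 5.87 FPKM in ICI and at 6.42, 7.24, 6.56 and 6.13 in Scop. Its groups met at 1 library each (log2 fold change -0.20, SE 0.08, adjusted p = 0.375). The pair of Wnt3a and Wnt9a on chromosome 11, with 16097 bases between them, gave -0.05 (SE 0.10) and 0.07 (SE 0.10).

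Wnt7b, a ligand made by many epithelia (chromosome 15, 85535437 to 85581821), had the opposite sign. It was at 31.5, 32.4, 33.7 and 32.2 FPKM in ICI and at 26.4, 25.3, 32.3 and 27.7 in Scop, where only replicate 3 lay within the ICI range. The means were 32.5 ± 0.936 and 27.9 ± 3.06 FPKM (log2 fold change 0.21, SE 0.07, adjusted p = 0.301 by limma). Without Scop replicate 3 the unadjusted p values of Wnt4, Wnt10a and Wnt7b were 0.00836, 0.0113 and 0.000303, and that of Fzd10 was 0.0469. Those of Wnt6, Wif1 and Axin1 were then above the threshold, at 0.0515, 0.0581 and 0.0811. Without Scop replicate 4, the differences of Wnt4, Wnt10a and Wnt7b were -0.30, -0.41 and 0.21 (unadjusted p 0.0056, 0.0178 and 0.0285 by limma). Scop replicate 4 is the only Scop library with Gm26917 above the ICI libraries, and the remaining Scop libraries all lie below them. This fit therefore cannot tell Gm26917 and the treatment apart.

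**Figure D3:**
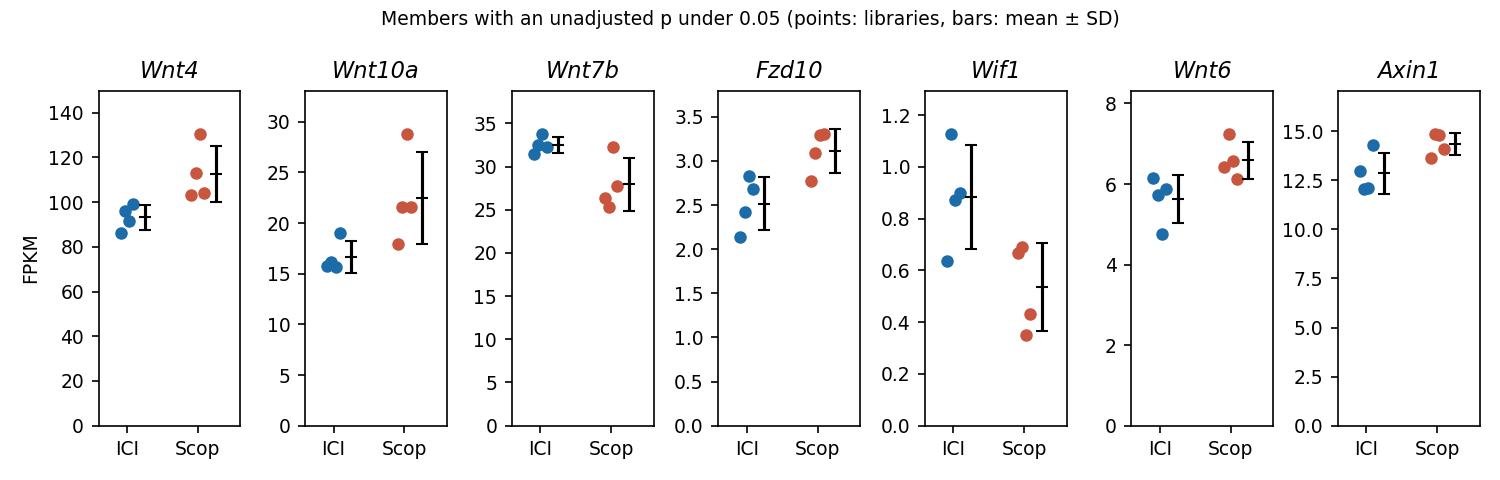
FPKM of the 7 members with an unadjusted p under 0.05, ordered by that p, as 1 point per library with the mean ± SD (n = 4), each axis starting at 0. Only for Wnt4 do the 4 ICI points all lie on 1 side of the 4 Scop points.

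Because Wnt4 and Wnt7b had opposite signs, their parts in the summed ligand signal were set side by side, a description chosen after their values had been seen and given with no test. Wnt4 made up 42.3, 43.9, 43.6 and 45.1% of the summed FPKM of the 15 Wnt genes in ICI and 46.9, 48.5, 52.1 and 46.7% in Scop. Wnt7b made up 15.4, 14.9, 16.1 and 14.6% in ICI and 11.98, 10.9, 12.9 and 12.4% in Scop. Neither share overlapped between the groups. The shares are tied, however: Wnt4 is the largest term of the sum, so a higher Wnt4 by itself lowers the share of Wnt7b. The FPKM of Wnt7b did overlap, through Scop replicate 3. How often shares of other genes separate the groups was not computed. A share within a library is left unchanged by a single scaling factor per library, though not by quantile normalisation. The share of Wnt10a, 7.39 to 8.64% in ICI and 8.12 to 11.5% in Scop, did overlap. The summed ligand level itself was 213 ± 7.69 FPKM in ICI and 232 ± 13.4 in Scop.

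**Figure D4:**
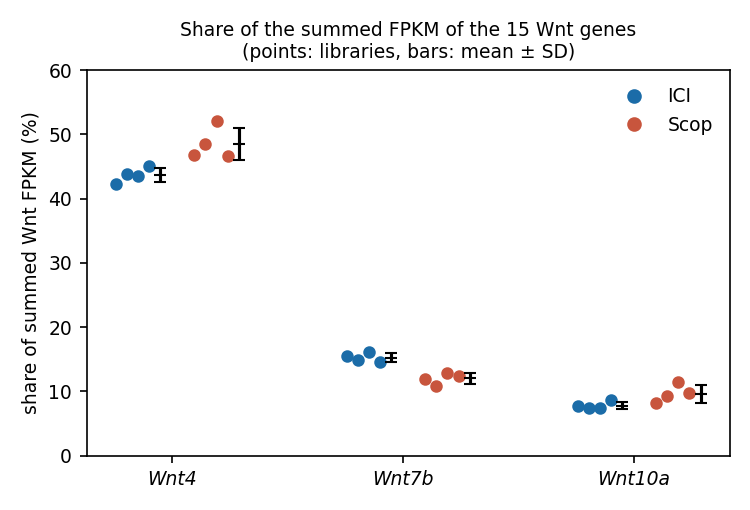
Share of the summed FPKM of the 15 Wnt genes held by Wnt4, Wnt7b and Wnt10a in each library, with the mean ± SD of 4 libraries. The ICI points of Wnt4 (42.3 to 45.1%) lie below those of Scop (46.7 to 52.1%), and those of Wnt7b (14.6 to 16.1%) above (10.9 to 12.9%).

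Of the 8 tested Frizzled receptors 1 had an unadjusted p under 0.05, beside 12.02% of all genes tested. Fzd10 (chromosome 5, 128601106 to 128604093) was at 2.13, 2.43, 2.83 and 2.68 FPKM in ICI and at 2.77, 3.09, 3.30 and 3.30 in Scop, with only ICI replicate 3 above the lowest Scop library. Its log2 fold change was -0.23 (SE 0.08, adjusted p = 0.338 by limma). Fzd1 had a lower mean as well, with 7.40, 7.74, 7.61 and 8.56 FPKM in ICI against 8.68, 7.85, 10.001 and 9.09 in Scop (-0.16, SE 0.08, adjusted p = 0.429). Fzd6, a receptor of planar polarity that dominated the family, held 59.5 ± 1.58% of the summed Frizzled FPKM in ICI and 58.1 ± 0.637% in Scop. It was at 50.1, 52.1, 58.9 and 57.8 FPKM in ICI and at 54.4, 51.0, 53.8 and 49.0 in Scop, and the groups overlapped (0.07, 95% interval -0.07 to 0.21). Fzd2 had 4.62, 4.18, 4.05 and 4.45 FPKM in ICI and 3.67, 4.19, 2.48 and 3.87 in Scop (0.24, SE 0.12, adjusted p = 0.448). Without Scop replicate 3, its lowest library, the difference of Fzd2 was 0.12.

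Lrp5 and Lrp6, the co-receptors, did not differ beyond their spread. Lrp5 was at 11.4, 9.59, 10.4 and 8.53 FPKM in ICI and at 11.7, 9.76, 11.1 and 10.6 in Scop (95% interval of the log2 difference -0.30 to 0.09). Lrp6 was at 7.66, 6.99, 6.36 and 7.08 FPKM in ICI and at 7.997, 7.01, 6.60 and 6.91 in Scop (-0.18 to 0.15). In both groups the highest library was replicate 1.

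Of the 6 tested secreted inhibitors only Wif1 had an unadjusted p under 0.05, beside 12.02% of all genes tested. Wif1, which binds Wnt ligands outside the cell (chromosome 10, 121034004 to 121100642), was at 0.635, 1.13, 0.872 and 0.900 FPKM in ICI and at 0.668, 0.691, 0.349 and 0.433 in Scop. Its values overlapped through ICI replicate 1, and they rested on only 27 to 100 fragments per library (log2 fold change 0.30, SE 0.11, adjusted p = 0.340 by limma). Dkk3, a divergent member of the Dickkopf family, was at 86.4, 104, 102 and 94.985 FPKM in ICI and 99.9, 91.7, 91.8 and 93.3 in Scop. Sfrp1 lay between 40.2 and 49.9 FPKM over all libraries. Both intervals spanned 0 (-0.10 to 0.18 for Dkk3 and -0.20 to 0.08 for Sfrp1).

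Dkk2, a co-receptor antagonist known in the eye for its role in corneal identity, was at 18.6, 19.8, 17.3 and 15.7 FPKM in ICI and at 21.2, 17.8, 5.58 and 16.5 in Scop. Scop replicate 3 was the only library outside the range of 15.7 to 21.2 FPKM. Its log2 fold change of 0.34 (SE 0.31) was -0.05 without that library. Dkk1, a further antagonist, was at 7.28, 0.990, 1.48 and 1.16 FPKM in ICI and at 1.87, 2.41, 0.774 and 1.16 in Scop. ICI replicate 1 alone reached 643 fragments, against 60 to 213 elsewhere, and without it the difference was -0.17 in place of 0.31. The corneal endothelial markers Slc4a11, Col8a1 and Car3 were also highest in ICI replicate 1 (41.4, 14.6 and 285 FPKM), and their part in the Dkk1 value was not tested.

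The tested genes of the R-spondin arm showed small differences. Lgr4, the R-spondin receptor with the highest level, was at 16.6, 17.3, 16.0 and 16.8 FPKM in ICI and 17.4, 15.9, 16.4 and 14.9 in Scop. Znrf3, a ligase that removes Frizzled, was at 2.59, 2.54, 2.33 and 2.45 FPKM in ICI and 2.90, 2.45, 2.66 and 2.43 in Scop, and Rnf43, its partner, at 4.10 ± 0.413 against 4.07 ± 0.657. Their intervals all spanned 0. Lgr5 and Lgr6, known as stem cell markers of gut and skin, reached at most 0.0643 and 0.284 FPKM.

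Ctnnb1 was at 199, 178, 199 and 194 FPKM in ICI and at 198, 186, 196 and 188 in Scop, with a 95% interval of the log2 difference from -0.11 to 0.11. Axin1, the scaffold of the destruction complex (chromosome 17, 26131217 to 26195811), was at 13.0, 12.1, 12.1 and 14.3 FPKM in ICI and 13.7, 14.9, 14.8 and 14.1 in Scop. Only ICI replicate 4 lay within the Scop range (-0.15, SE 0.06, adjusted p = 0.395 by limma). Its unadjusted p was under 0.05 in only 8 of 18 alternative settings, and above it after median-ratio scaling and quantile normalisation. Axin2, which many tissues transcribe in response to β-catenin, was at 4.41, 4.73, 3.68 and 2.91 FPKM in ICI and 3.90, 3.44, 2.28 and 3.30 in Scop. The groups overlapped, and the difference of 0.22 (SE 0.15, adjusted p = 0.575) was 0.10 without Scop replicate 3. Lef1, a transcription factor of the pathway, was too low to test, at 0.298, 0.257, 0.309 and 0.294 FPKM in ICI and 0.393, 0.236, 0.0899 and 0.197 in Scop, from 14 to 71 fragments. Tcf7l2 (4.77 ± 0.655 against 4.56 ± 0.351 FPKM) and Tcf7l1 (2.74 ± 0.234 against 2.56 ± 0.0931) were the Tcf genes above the filter.

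Of the 34 tested members, 8 were lowest in Scop replicate 3, the library with the lowest stromal markers, and 5 were highest, which is 23.5% and 14.7%, beside 24.9% and 15.01% of all genes tested. These shares are near the background, so standing apart in that library is not particular to the members. Against the median of the other 7 libraries it held 31.4% of the Dkk2 level, 37.4% of Wnt5a, 38.2% of Sfrp2, 50.5% of Wif1, 52.3% of Dkk1, 54.2% of Wnt11, 59.5% of Fzd2 and 61.9% of Axin2, beside 21.2% of the keratocyte gene Kera and 33.2% of Dcn, a stromal proteoglycan gene. In the other direction it held 161% of Wnt10a, 131% of Wnt4 and 127% of Fzd1. Beside these it held 206% of the basal keratin gene Krt14, 159% of Krt4, a keratin gene of the conjunctiva, and 118% of Krt12. Other genes of the corneal list were nearer the median: Klf4, Gjb2 and Krt5 at 120, 117 and 111%, Cdh1 at 108%, and Pax6, Aldh3a1 and Tkt at 103% each. Of the limbal list Krt15 and Ifitm3 were at 128 and 118%, and Gpha2 and Abcg2 at 99.7 and 78.7%. Of the corneal list Gjb2 had a higher Scop than ICI mean, and its groups did not overlap. Its log2 difference was -0.23 (unadjusted p 0.00144, adjusted p 0.181 by limma). Those of Krt14, Klf4, Krt5, Pax6, Krt12 and Cdh1 were -0.34, -0.07, -0.06, -0.04, -0.03 and -0.02. Aldh3a1 and Tkt went the other way, at 0.02 and 0.03. Unadjusted p values of these other corneal genes ran from 0.219 to 0.766 by limma. Of the conjunctival list Krt4 and Krt19 also had higher Scop than ICI means, with unadjusted p values of 0.0305 and 0.0246 by limma. Of the same conjunctival list Krt13, Krt8 and Krt7 had log2 differences of -0.08, -0.35 and 0.03 (unadjusted p 0.577, 0.137 and 0.837 by limma). Spdef was too low to test. The part of Gjb2 and of these keratin genes in the values of Wnt4 and Wnt10a was not tested. Wnt5a, a ligand of β-catenin-independent signalling, was at 19.97, 18.7, 17.3 and 15.3 FPKM in ICI and 23.0, 18.9, 6.98 and 18.5 in Scop. Wnt11, of the same branch, was at 14.02, 11.6, 11.7 and 10.7 against 11.4, 11.7, 6.31 and 11.4. Without Scop replicate 3 the log2 difference of Wnt5a was -0.17 in place of 0.18, and that of Wnt11 0.05 in place of 0.25. With the mean log2 level of the 15 stromal markers as a covariate, a fit added after the data had been seen, Wnt4, Wnt10a and Wnt7b had differences of -0.17, -0.23 and 0.30 (unadjusted p 0.0108, 0.0140 and 0.000299), and that of Wnt5a was -0.26 (0.00243). Wnt6, Fzd10, Wif1 and Axin1 were above the unadjusted threshold in that fit (0.0526, 0.0680, 0.0752 and 0.110). By limma none of the first-named 4 passed adjustment over all genes (adjusted p from 0.111 to 0.226). The part of the stroma in these values was not tested beyond these fits.

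**Figure D5:**
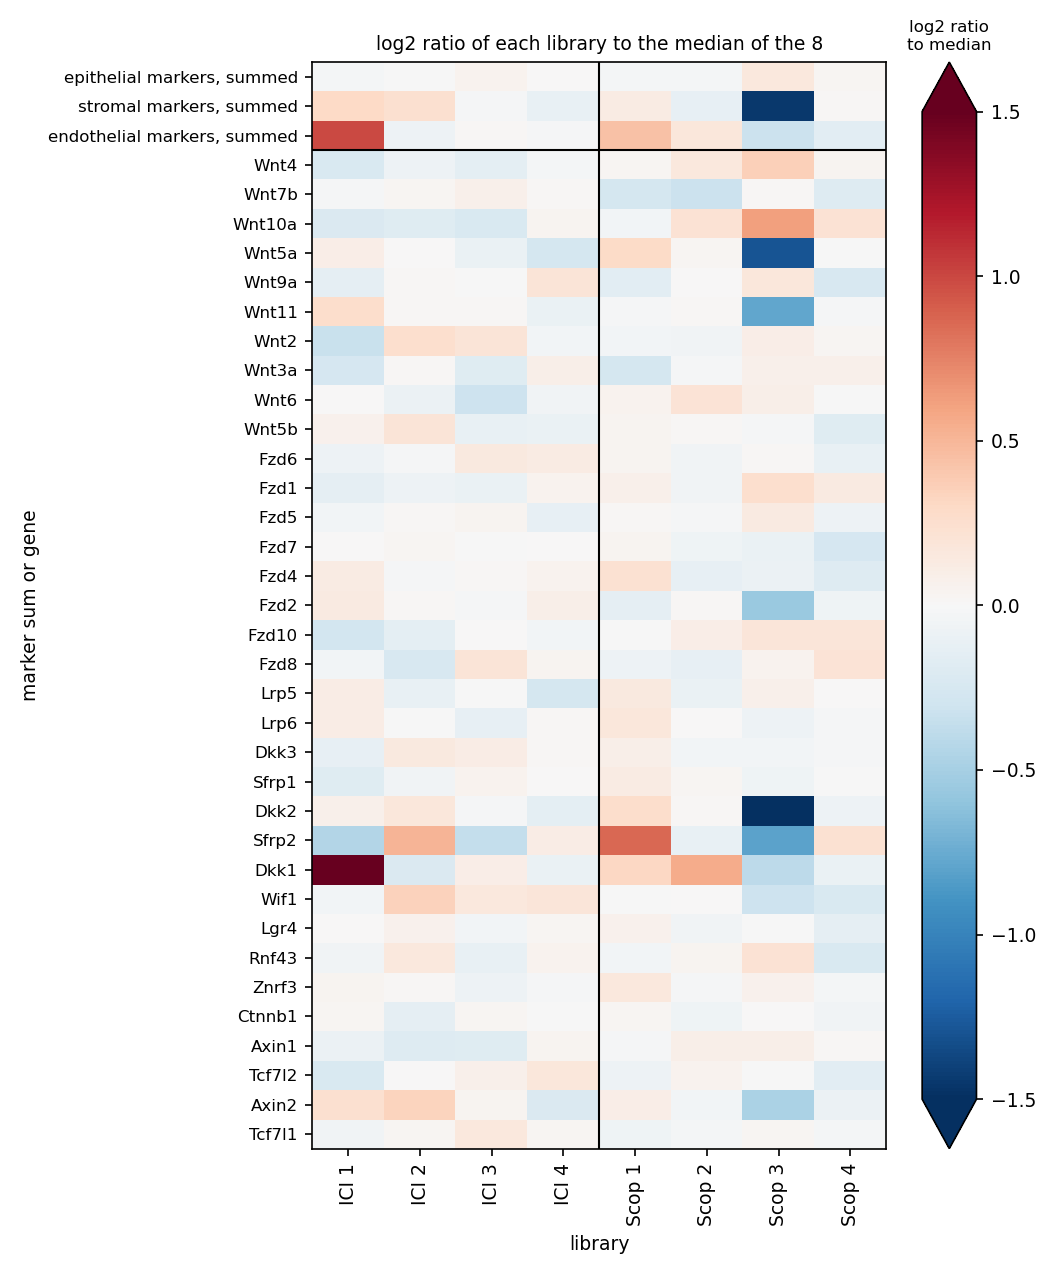
Log2 ratio of each library to the median of the 8, for 3 summed marker lists (top, without pseudocount) and the 34 tested members (with 1 FPKM added), ICI libraries left of the line and Scop libraries right of it. Scop replicate 3 is low for the stromal markers, Dkk2, Wnt5a and Wnt11 and high for Wnt10a and Wnt4, and ICI replicate 1 is high for the endothelial markers and Dkk1.

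The remaining 13 members did not reach the filter, and none exceeded 0.425 FPKM (Fzd3 in ICI replicate 1) in any library. Of these 13, 7 were listed at 0 in at least 1 library, and Wnt3, Wnt8a and Wnt16 were above 0 in 1 library only. Tcf7, a factor known from T cells, was at 0.323 ± 0.0559 FPKM in ICI and 0.299 ± 0.0609 in Scop. Sfrp5, an inhibitor that binds ligands, had all 4 ICI values (0.174, 0.0665, 0.0802 and 0.154 FPKM) above all 4 Scop values (0.0394, 0.0535, 0.0610 and 0.0146). These came from 13, 5, 6 and 11 fragments in ICI and 3, 4, 4 and 1 in Scop, so counting error alone is large, and the gene was picked after its values had been seen.

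Outside the 47 members, a list of 85 other genes of Wnt secretion, reception, transduction and target response held 83 genes of the table, of which 61 were tested. At an unadjusted p under 0.05, 4 had higher and 1 had lower values in ICI, 8.20% in all against 12.02% of all genes tested, and none passed adjustment. Amer1, a membrane-bound regulator of the destruction complex, was at 7.20 ± 0.189 against 6.13 ± 0.431 FPKM (ICI against Scop, no overlap, log2 fold change 0.20, SE 0.06, adjusted p = 0.282 by limma). Wls and Porcn, which carry and acylate Wnt proteins on their way out of the cell, were at 29.4 ± 2.09 against 25.8 ± 1.86 and 8.89 ± 1.11 against 7.66 ± 0.144 FPKM, and both overlapped between the groups; Porcn falls outside the naming rule. Lrp4, a receptor related to the co-receptors, was at 5.18 ± 0.343 against 4.51 ± 0.254 FPKM, with no overlap. Gsk3a, a kinase of the destruction complex, was the 1 gene with lower values (40.2 ± 2.33 against 43.9 ± 1.41 FPKM), again with no overlap. The most abundant of the list were Sdc1, a heparan sulphate proteoglycan gene (556 ± 25.1 against 574 ± 12.3 FPKM), and Id2, a frequent target gene (227 ± 6.02 against 209 ± 13.9), whose groups did not overlap. In all, 3 of the 61 did not overlap on the higher side and 1 on the lower side, beside 2.63% and 4.36% of all genes.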

How the data were processed

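The authors deposited FPKM values for 8 samples, matched here by title. The submitters' processing notes name fastp, HISAT2, HTSeq and build mm10. Versions, annotation, strandedness and scaling were not stated, so reads of overlapping antisense genes cannot be told apart. Whole fragments were recovered from ratios of FPKM (ratios read as fractions within 5e-13, whole within 0.01) for 99.8% of genes, which gave the depths. Tests were two-sided, with limma 3.58.1 (trended eBayes) in R 4.3.3 on log2(FPKM + 1), over genes whose mean reached 0.5 FPKM, with a threshold of 0.05 on adjusted p; the script was tested on simulated data. Coordinates and promoters are RefSeq's, GRCm38.p6. The members, lists and rules were chosen with earlier results of these data known. Values in every sample were given, per role, for the most abundant member and the 2 with the smallest p, for each with an unadjusted p under 0.05 or no overlap, and for Axin2 and Lef1. Of other pathway genes the 4 with the smallest p and the 2 most abundant were named. Other members shown in every sample (Dkk1, Wnt5a, Wnt11 and Sfrp5 among them) were picked after their values had been seen. Alternatives were other pseudocounts, filters and scalings, robust estimation, limma-voom on fragments, the replicate number as a block, leaving out each library, and a stromal covariate.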

Additional observations from a re-analysis of the deposited data

Results flagged for a closer look

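Among the 34 tested members, in both groups (68 groups of 4 libraries), 3 groups had 1 library far from the others by Dixon's gap test. Chance gives this in about 1 of 20 groups, so 3 of 68 is no more than that share. Dkk1 was at 7.28 FPKM in ICI replicate 1 and between 0.990 and 1.48 in the remaining ICI libraries. Wnt10a was at 19.0 FPKM in ICI replicate 4 and between 15.6 and 16.2 in the rest. Wnt11 was at 6.31 FPKM in Scop replicate 3, where the rest lay between 11.4 and 11.7.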

How the results depend on the processing

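No member passed the adjusted threshold under any alternative run (smallest adjusted p 0.111, for Wnt7b with the stromal covariate), and Wnt4, Wnt10a and Wnt7b had an unadjusted p under 0.05 in all 18. Fzd10 and Wif1 did in 13 of 17 each, Wnt6 in 11 of 18 and Axin1 in 8 of 18; Fzd10, Wnt6 and Axin1 lost it after quantile normalisation, Wnt6 with limma-voom, Axin1 with median-ratio scaling and the block, and all 4 with the stromal covariate. At that unadjusted threshold the 2 higher members were 1 with a filter of 5 FPKM, which leaves fewer genes, and 1 to 3 when a library was left out. The 5 lower members were 2 after quantile normalisation, 3 with the stromal covariate and 3 to 6 when a library was left out; the cause was not tested. Over all genes, limma's adjusted calls numbered 1 lower with the stromal covariate, and 0 to 4 higher and 0 to 2 lower when a library was left out, the most without Scop replicate 4. The median member difference of 0.03 was 0.0037 without a filter and -0.00045 with a filter of 5 FPKM. Of 599 recomputed member values 32 changed sign, in 13 members, none with an unadjusted p under 0.05 as deposited. With the stromal covariate these were Ctnnb1 (0.010), Dkk2 (-0.14), Fzd5 (0.0014), Fzd8 (0.0037), Wnt3a (0.0077) and Wnt5a (-0.26). Scaling turned Ctnnb1 (0.018 by median ratio, 0.0016 by quantiles) and Lrp6 (0.0049 by quantiles). Leaving out a library gave -0.017 to 0.036 for Ctnnb1, -0.17 to 0.52 for Dkk1, -0.046 to 0.54 for Dkk2, -0.096 to 0.049 for Fzd8, -0.056 to 0.031 for Lrp6, -0.062 to 0.089 for Rnf43, -0.37 to 0.19 for Sfrp2, -0.0086 to 0.12 for Tcf7l2, -0.076 to 0.12 for Wnt2, -0.13 to 0.0061 for Wnt3a, -0.17 to 0.36 for Wnt5a and -0.016 to 0.087 for Wnt5b. With the replicate number as a block, 3 members were higher and 4 lower without adjustment and 0 with it. Same-numbered samples correlated in their deviations at 0.287, -0.009, 0.138 and 0.077, so the numbers were not taken as pairs, and not every sample correlated best with its own number. Members under about 100 fragments per library, Wif1 among them, are limited by counting error.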

Other observations

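Wnt7b was also set against Wnt4 within each library, a ratio that a single scaling factor per library leaves unchanged but quantile normalisation does not. Wnt7b stood at 36.5, 33.8, 36.9 and 32.5% of the Wnt4 FPKM in ICI replicates 1 to 4 and at 25.6, 22.5, 24.8 and 26.6% in the Scop replicates. The means were 34.9 ± 2.14% and 24.9 ± 1.77% (SD, n = 4 in each group). Each ICI ratio lay above each Scop ratio. In Scop replicate 3 Wnt7b alone lay within the ICI range (32.3 FPKM), while Wnt4 was at its highest there (130.4 FPKM). The pair was picked for its opposite signs after the values had been seen. A wider gap in the ratio than in either gene was thus built in, and no test is given.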
